A study of Homo sapiens with 3 samples.

Results

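BAX, BBC3 (PUMA), PMAIP1 (NOXA), BID, APAF1, AEN, TP53I3 (PIG3) and TP53INP1 are 8 genes known as targets of p53 whose products promote cell death. They were followed here in YB5 colon cancer cells given decitabine, carboplatin or both drugs. A probe was counted when its gene name in the scanner files was 1 of these 8 and it was no control spot. All 8 genes had at least 1 such probe, 13 probes and 31 spots on each array, among 18613 genes measured. YB5 was cloned from SW48, a line from a colon cancer, and carries a single GFP reporter silenced by methylation, so all values come from 1 clone. Decitabine was given at 25 nM and carboplatin, by the sample labels, at 20 µM, alone or together, in 4 doses from day 1 to day 4, and cells were harvested on day 6. Control cells received the solvent DMSO by the series description, and the sample titles call them untreated. Each treatment had 1 dual-colour array, with treated RNA in Cy3 (green) and control RNA in Cy5 (red) on all 3, and whether the control channels hold the same RNA extract is not stated.

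The transcription factor p53 is stabilised after DNA damage and binds pairs of decameric half-sites near its target genes, among them its own inhibitor MDM2 and the cell cycle inhibitor CDKN1A. On the death side, p53 raises BH3-only proteins such as PUMA and NOXA, which release BAX and BAK at the outer membrane of the mitochondrion. Cytochrome c then leaves the mitochondrion and assembles APAF1 into the apoptosome, which activates caspase 9. Decitabine is incorporated into DNA and traps DNA methyltransferases, and carboplatin forms platinum crosslinks in DNA.

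The sequences just before the annotated starts of AEN, PMAIP1 and BBC3 are shown. AEN and PMAIP1 hold a match to the p53 site there. BBC3, which rose by some of its probes but not by its brightest, holds none in this window. The sequences are the 250 bases before the RefSeq start (GRCh38.p14), 5′ to 3′ on the strand of the gene, with the matched 20 bases in capitals. AEN lies on the plus strand at chr15:88621090-88621339, PMAIP1 on the plus strand at chr18:59899746-59899995 and BBC3 on the minus strand at chr19:47232668-47232917.
AEN: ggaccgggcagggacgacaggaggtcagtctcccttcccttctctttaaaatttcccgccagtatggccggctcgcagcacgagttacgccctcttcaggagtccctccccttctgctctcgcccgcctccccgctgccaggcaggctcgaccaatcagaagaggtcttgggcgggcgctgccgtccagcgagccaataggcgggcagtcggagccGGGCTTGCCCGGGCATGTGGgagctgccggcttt
PMAIP1: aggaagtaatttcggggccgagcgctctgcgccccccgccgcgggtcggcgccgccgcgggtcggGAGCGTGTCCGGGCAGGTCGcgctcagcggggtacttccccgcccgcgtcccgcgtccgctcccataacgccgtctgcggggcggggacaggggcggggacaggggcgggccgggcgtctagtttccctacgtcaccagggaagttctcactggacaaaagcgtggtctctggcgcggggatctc
BBC3: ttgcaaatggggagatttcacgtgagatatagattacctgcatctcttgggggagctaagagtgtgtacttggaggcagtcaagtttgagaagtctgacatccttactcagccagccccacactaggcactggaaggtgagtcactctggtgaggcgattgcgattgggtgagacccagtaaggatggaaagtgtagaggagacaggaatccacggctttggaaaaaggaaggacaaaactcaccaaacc

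The p53 half-site consensus, which reads the same on both strands, was searched as an exact match and as a pair of adjacent half-sites over 20 bases with no spacer and up to 3 mismatches outside the core C and G. Windows ran from 250 bases before to 50 bases after each start. AEN holds an exact half-site beginning at position -34, and the pair beginning there has 2 mismatches. In PMAIP1 the pair begins at position -185 and has 3 mismatches. Of the 8 genes, 7 were in the RefSeq promoter table, with 1 holding an exact half-site and 2 a pair. TP53INP1 was the gene without an entry. Over all 35116 windows, 6.63% held an exact half-site and 1.12% a pair. These are shares of windows and not of genes, since a gene such as BID can have several windows. Such a match is a description of letters, and p53 binding was not measured in these data.

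All 13 probes were well above background in both channels of all 3 arrays, and none of their spots was saturated. Over each array, 65.8 to 68.5% of gene spots were well above background in the treated channel and 68.2 to 70.3% in the control channel. Among markers of intestinal epithelium, 7 of 10 were well above background in both channels of all arrays (EPCAM, KRT8, KRT18, KRT19, CDH1, VIL1 and CDX2, but not KRT20, CDX1 and LGALS4). Among markers of blood, endothelial and stromal cells, 1 of 9 was, COL1A1. Spots in columns 1 to 9 of the array labelled decitabine stood apart. Their median log2 change, treated over control, was 0.75, against -0.02 in its other columns, whereas on the other arrays it was -0.03 and 0.01. Of the 13 probes, 3 have their only spot in these columns (AEN, 1 of BBC3 and 1 of BID), so their values are given apart. A second normalisation left the columns out on all arrays. The array names follow the sample labels, but the labels of the single-drug arrays are in doubt. PMAIP1, AEN and BBC3 stand in the study's own list of genes raised by carboplatin. In these files they changed more on the array labelled decitabine, as the values below show (BBC3 not by its brightest probe). On the array labelled carboplatin they also passed 1.5-fold, at 1.53-, 1.78- and 1.62-fold (BBC3 by probe A_23_P382775). Of that list, GADD45A (1.93 and 0.23, log2) and TNFRSF10B (0.94 and 0.04) passed it on the array labelled decitabine only. PLK3 (2.98 and 1.12) and PHLDA3 (2.31 and 1.20) passed it on both. Whether the labels were exchanged was not tested. No array was reassigned.

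Changes are log2 ratios of treated over control signal after background correction and loess, and a gene was called raised or lowered at 1.5-fold or more, which is 0.58 on the log2 scale. Since no treatment had a second array, replicate error is unknown and nothing was tested. Where values are given for all arrays they stand in a fixed order, the array labelled decitabine first, that labelled carboplatin second and that of both drugs last. The technical error within an array was the SD of the log2 change over repeat spots of 264 probes printed 10 times, which was 0.230 on the array labelled decitabine (0.0786 outside columns 1 to 9), 0.0751 on that labelled carboplatin and 0.0769 with both drugs. A raised level in these bulk samples cannot tell more RNA per cell from a larger share of cells with it. The dyes were not exchanged, so every value also holds any dye bias of its probe.

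Taking each gene by its brightest probe, 6 of the 8 genes were raised on the array labelled decitabine, where 10.6% of all genes were raised and 4.67% lowered. On the array labelled carboplatin 4 of 8 were raised, against 2.76% of all genes raised and 1.49% lowered. On the array of both drugs 5 of 8 were raised, against 7.47% raised and 5.92% lowered. None of the 8 was lowered on any array, though BBC3, by its brightest probe in column 9, was lowered on the array labelled decitabine with the scanner's processed signals or log ratio and, with median centring in place of loess, there (-0.79) and with both drugs (-0.71). With that centring, 0 of the 8 were raised on the array labelled carboplatin. For the 8 genes the median log2 change was 1.55, 0.43 and 1.62 in the order of arrays above, and that of all genes was 0.01, -0.01 and 0.00. The brightest probes of AEN, BBC3 and BID lie in columns 1 to 9. Without these columns AEN was not measured, and 5 of 7, 4 of 7 and 5 of 7 genes were raised on the 3 arrays, against 5.12, 2.72 and 7.39% of all 17459 genes. The raised genes were then BAX, BBC3, PMAIP1, TP53INP1 and, except on the array labelled carboplatin, TP53I3. APAF1 and BID were called on none of the arrays, and the median of the 7 genes was 1.60, 0.61 and 1.72.

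**Figure D1:**
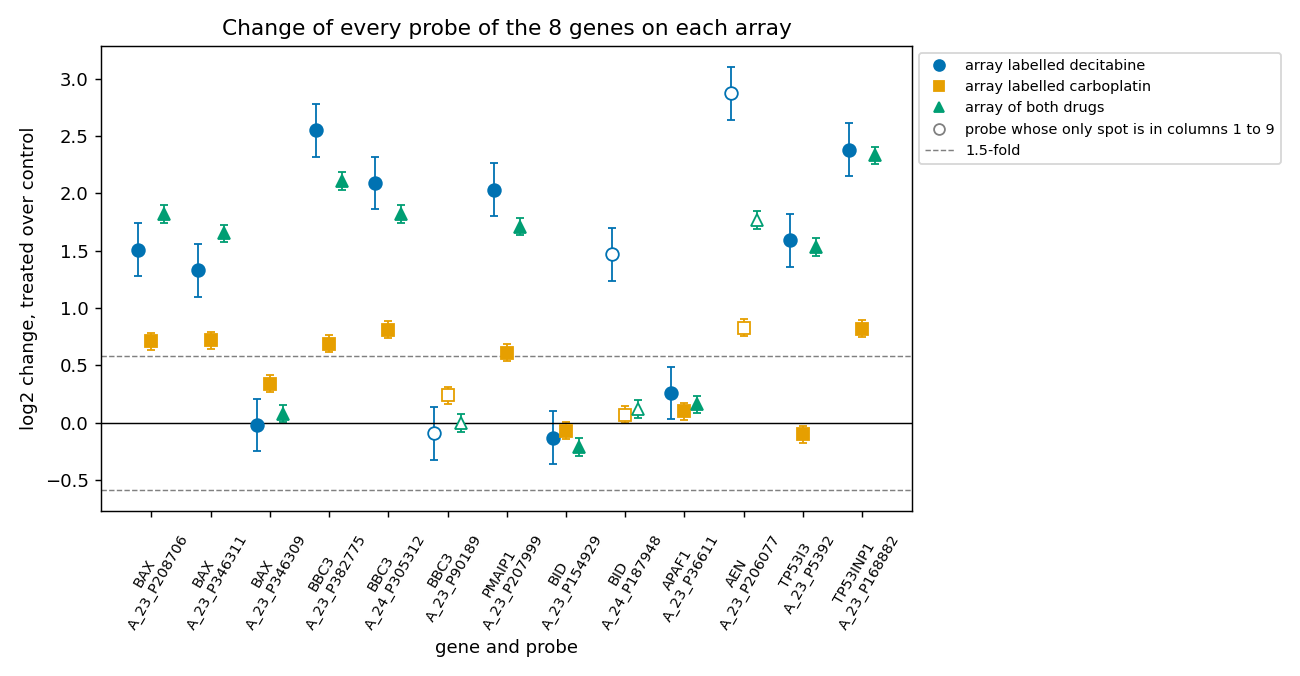
Log2 change, treated over control (vertical axis), of each of the 13 probes (horizontal axis) on the 3 arrays. Bars are the repeat-spot SD of that array (0.230, 0.0751 and 0.0769), open symbols are probes whose only spot lies in columns 1 to 9, and dashed lines mark 1.5-fold. BAX, BBC3, PMAIP1, TP53I3 and TP53INP1 each had at least 1 probe above 1.3 on the arrays labelled decitabine and both drugs, while APAF1 stayed between 0.10 and 0.26.

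BAX forms the pores through which the outer mitochondrial membrane is opened. Its brightest probe, A_23_P208706 (chr19:49464904-49464963, GRCh37), was printed 10 times on each array. Outside columns 1 to 9 its treated signal ran from 4587 to 7414 units on the array labelled decitabine and its control signal from 3761 to 5858. On the array labelled carboplatin the treated signal was 2387 to 3356 and the control signal 3448 to 4722, and with both drugs they were 5439 to 8420 and 3320 to 4847. The control signals thus overlapped between arrays, and the treated signals of the array labelled carboplatin lay below those of the other two. The log2 change was 1.51 (spot SD 0.0472, 7 spots), 0.71 (0.0343, 10 spots) and 1.82 (0.0542, 10 spots), or 2.84-, 1.64- and 3.53-fold. The spots with both drugs, at 1.73 to 1.90, did not overlap those on the array labelled decitabine outside columns 1 to 9, at 1.46 to 1.59.

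Spots of the same BAX probe lie in and outside the first columns. Of its 10 spots, 2 lie in columns 1 to 9, and on the array labelled decitabine their treated signals, 5087 and 6017, were within the range of the other 8. Their control signals of 1441 and 1591 were below all of the other 8. These spots gave log2 changes of 3.00 and 3.09, and the scanner software had marked both as outliers, so they are not in the value above. On the other 2 arrays the same positions gave 0.67 to 0.69 and 1.83 to 1.90, close to the rest of each array.

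**Figure D2:**
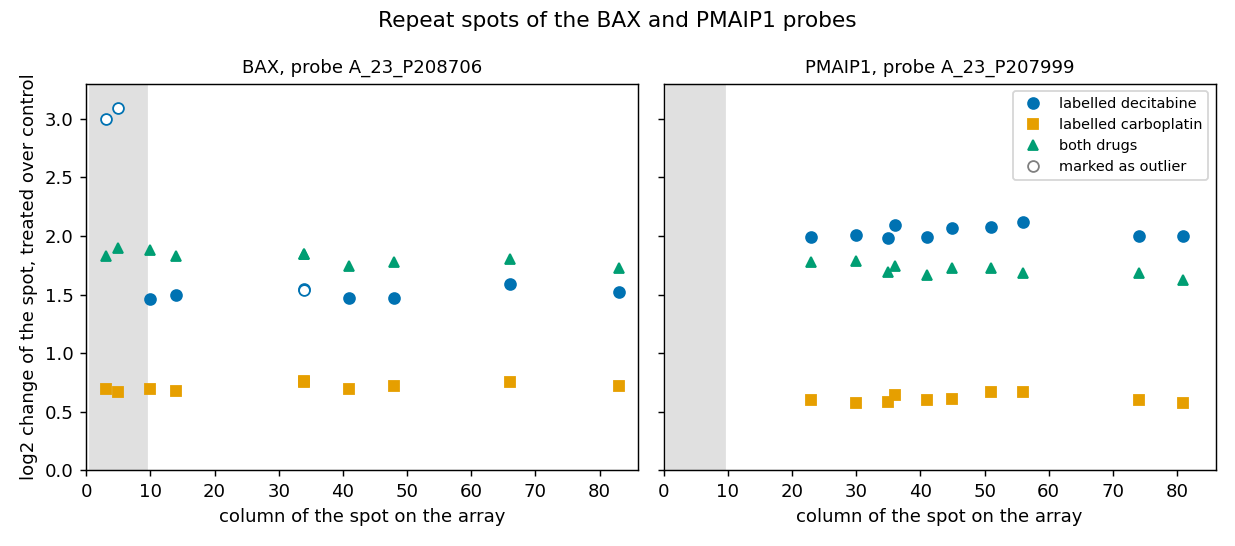
Log2 change, treated over control (vertical axis), of each repeat spot of the BAX and PMAIP1 probes against the column of the spot on the array (horizontal axis). The grey band marks columns 1 to 9 and open symbols are spots marked as outliers. The 2 BAX spots in the band read 3.00 and 3.09 on the array labelled decitabine and 1.46 to 1.59 elsewhere on it, and PMAIP1 has no spot in the band.

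BAX has 2 more probes, which did not change alike. Probe A_23_P346311 (chr19:49458958-49459017) had treated signals of 887.6, 564.4 and 990.3 on the 3 arrays, against controls of 749.4, 741.8 and 604.7. Its log2 change was 1.33, 0.72 and 1.65, close to the 10-spot probe. Probe A_23_P346309 (chr19:49458729-49458788) had treated signals of 1830, 2424 and 1852 against controls of 4174, 4572 and 3542, and log2 changes of -0.02, 0.34 and 0.08. This probe was called on no array, and its highest value fell on the array labelled carboplatin, where the other probes had their lowest. No annotation of the GRCh37 build was used here, so the exons or transcripts that the BAX probes read are not given.

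BBC3 encodes PUMA, a BH3-only protein that binds all the BCL2-like survival proteins. Its 3 probes divided in the same way. Probe A_23_P382775 (chr19:47724174-47724233, minus strand) had treated signals of 28320, 8019 and 19840 and control signals of 11440, 12120 and 9858 on the 3 arrays. Its log2 change was 2.55, 0.69 and 2.11, or 5.84-, 1.62- and 4.31-fold. Probe A_24_P305312 (chr19:47725087-47725146) read 1128, 380.1 and 797.5 in treated and 563.2, 447.3 and 417.7 in control cells, which gave 2.09, 0.81 and 1.82. These 2 probes placed the arrays in the same order, with the array labelled decitabine highest and the array labelled carboplatin lowest. The third probe, A_23_P90189 (chr19:47731434-47731493), lies in columns 1 to 9 and upstream of both in the direction of the gene. Its treated signals were 43080, 58130 and 49110, its control signals 115900, 136300 and 118900, and its log2 changes -0.09, 0.24 and 0.00. It was the brightest of the 3 and so stands for BBC3 in the counts over 8 genes, in which BBC3 was not raised. In the median over its probes BBC3 changed by 2.09, 0.69 and 1.82.

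PMAIP1 encodes NOXA, a BH3-only protein that binds MCL1, and it is the gene whose promoter pair begins at position -185 in the sequence above. Its probe A_23_P207999 (chr18:57570278-57570337, GRCh37) was printed 10 times with no spot in columns 1 to 9. Treated signals ran from 1332 to 2100 on the array labelled decitabine, from 511.4 to 678.3 on the array labelled carboplatin and from 1032 to 1505 with both drugs. The control signals of the same arrays, at 723.4 to 1096, 731.4 to 973.1 and 618.2 to 898.3, overlapped. The log2 change was 2.03 (spot SD 0.0522), 0.61 (0.0369) and 1.71 (0.0533), each over 10 spots, or 4.09-, 1.53- and 3.28-fold. The spots of the 3 arrays did not overlap, since they ran from 1.98 to 2.12, from 0.57 to 0.67 and from 1.62 to 1.79. The value on the array labelled carboplatin lies just past the 1.5-fold line, with some of its spots on either side.

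BID, the BH3-only protein that links death receptors to mitochondria after cleavage by caspase 8, was not raised by its probe outside the first columns. Probe A_23_P154929 (chr22:18218038-18218097) had treated signals of 1824, 1549 and 1562 and control signals of 4491, 3831 and 3643 on the 3 arrays. Its log2 changes were -0.13, -0.07 and -0.21. Probe A_24_P187948 (chr22:18218182-18218241), in columns 1 to 9, had treated signals of 8685, 8169 and 8214, which were alike, and control signals of 7180, 19120 and 15930. It changed by 1.47 (log2) on the array labelled decitabine, where its control signal was lowest, against 0.07 and 0.12 on the others. The call of BID as raised thus came from 1 spot in columns 1 to 9, and the other BID probe did not have it.

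APAF1, the scaffold of the apoptosome, was not called on any array. Its probe A_23_P36611 (chr12:99128417-99128476) had treated signals of 141.2, 129.6 and 142.5 over backgrounds of 49.5, 53 and 54.5, and control signals of 224.2, 220.9 and 203.7. The log2 changes were 0.26, 0.10 and 0.16 on the 3 arrays. All 3 treated levels lay above all 3 control levels after scaling between arrays, but by less than 1.5-fold. With an offset of 10 in place of 50 units the changes were 0.34, 0.14 and 0.23, and with the scanner's processed signals 0.48, 0.21 and 0.31, still under 1.5-fold.

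AEN is a nuclease that p53 induces and that degrades DNA during apoptosis, and its promoter window above holds both the exact half-site and the pair. Its only probe, A_23_P206077 (chr15:89174900-89174959, GRCh37), lies in column 4. Treated signals were 1091, 550.1 and 1080 on the 3 arrays, and control signals were 308.0, 682.6 and 607.7. The log2 changes were 2.87, 0.83 and 1.77. The treated signals of the arrays labelled decitabine and both drugs were nearly equal, and the difference in their changes lay in the control signal. After scaling between arrays the treated level on the array labelled decitabine was 10.58, and the control levels were 7.71 on that array and 8.81 and 8.84 on the others. On the 2 arrays without the column shift, AEN was raised 1.78-fold on the array labelled carboplatin and 3.40-fold with both drugs.

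TP53I3, an oxidoreductase related to quinone reductases and linked to reactive oxygen species, was raised on 2 arrays and not on the third. Its probe A_23_P5392 has its ends at chr2:24300615-24302356 on the minus strand, a span of 1742 bases for a 60-base oligonucleotide. Treated signals were 9497, 2273 and 8262 and control signals 7270, 5805 and 5925 on the 3 arrays. The log2 changes were 1.59, -0.10 and 1.53, or 3.01-, 0.934- and 2.89-fold. On the array labelled carboplatin 32.4% of all genes had a lower change than TP53I3, whereas on the arrays labelled decitabine and both drugs 97.8 and 99.1% did. TP53I3 was the only one of the raised genes whose treated level on the array labelled carboplatin, 11.79, was below all control levels, which ran from 11.89 to 12.13 without columns 1 to 9.

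TP53INP1, a stress protein that binds the kinases acting on p53, had the largest combined change over the 3 arrays among the 7 genes measured without columns 1 to 9. Its probe A_23_P168882 had treated signals of 3609, 1033 and 3252 and control signals of 1558, 1338 and 1300 on the 3 arrays. The log2 changes were 2.38, 0.82 and 2.33, or 5.19-, 1.77- and 5.03-fold. The arrays labelled decitabine and both drugs differed by 0.05, less than the repeat-spot SD of either.

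Seen by channel, the control RNA of the 3 arrays gave similar levels for these genes. After scaling between arrays and without columns 1 to 9, the SD of the control level over the 3 arrays ran from 0.0207 (PMAIP1) to 0.126 (TP53I3) on the log2 scale over the 10 remaining probes. The treated levels of BAX probe A_23_P208706 were 12.94, 12.08 and 13.26 on the 3 arrays, all above its controls of 11.36 to 11.45. Those of TP53INP1 were 12.33, 10.61 and 12.25 against controls of 9.79 to 9.95. BID was the one gene whose treated levels, 11.21 and 11.20, lay below its controls of 11.29 to 11.47 both with both drugs and on the array labelled carboplatin. These ranges describe 3 hybridisations and not biological replicates.

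**Figure D3:**
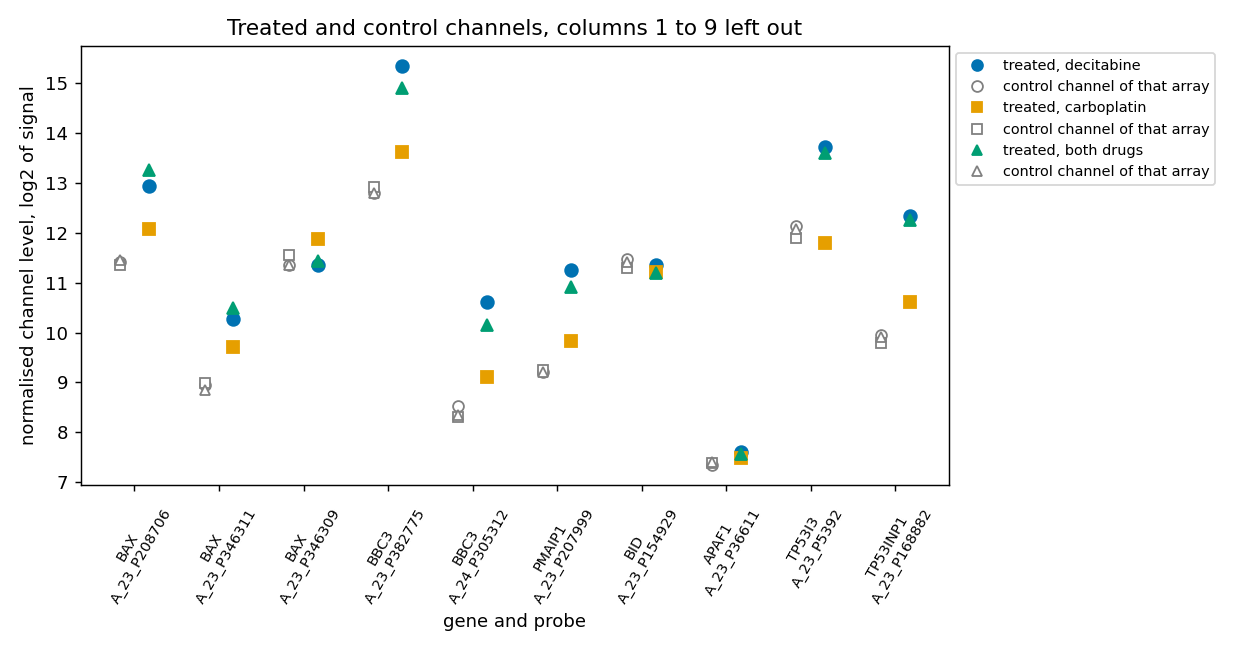
Channel level after scaling between arrays, as log2 of signal (vertical axis), for the 10 probes with a spot outside columns 1 to 9 (horizontal axis). Grey open symbols are the control channels and filled symbols the treated channels of the 3 arrays. Treated PMAIP1 levels were 11.25, 9.84 and 10.91 over controls of 9.20 to 9.24, while the BAX probe A_23_P346309 on the arrays labelled decitabine and both drugs lay at 11.35 and 11.44, within its controls of 11.35 to 11.55.

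The study asked whether the drugs together raise genes silenced by methylation, by a GFP reporter, PCR and counts of raised genes, among other measures. A different measure was taken here for the 8 genes, whose promoter methylation was not considered. The single-drug log2 changes of each gene were added and compared with its change under the combination. None of the 8 genes was above the sum by 1.5-fold or more, against 1.77% of all genes, and 4 of 8 were below it by as much (PMAIP1, AEN, TP53INP1 and BID), against 7.56%. AEN and BID were there by spots in columns 1 to 9. Without columns 1 to 9, 3 of 7 were below the sum (BBC3, PMAIP1 and TP53INP1), against 1.35% of all genes, and 0 of 7 above it, against 1.87%. The log2 difference from the sum was -1.13 for BBC3, -0.94 for PMAIP1, -0.87 for TP53INP1 and -0.42 for BAX. It was 0.04 for TP53I3, the only gene with a value above 0. Each value is that of 1 probe, for BBC3 A_23_P382775 and for BAX A_23_P208706. Of the other BBC3 probes, A_24_P305312 had -1.09 and A_23_P90189, in columns 1 to 9, -0.16 with these columns kept. The other BAX probes had -0.40 (A_23_P346311) and -0.24 (A_23_P346309). The median difference was -0.42 for the 7 genes and 0.01 for all genes. Set against the array labelled decitabine alone, the change with both drugs was higher for BAX, by 0.29, and lower for BBC3, by -0.44, and PMAIP1, by -0.33. For BAX and PMAIP1 the repeat spots of the arrays do not overlap, and for TP53I3 (-0.06) and TP53INP1 (-0.05) the difference was under the repeat-spot SD. With median centring in place of loess the values of all 3 called genes fell short of 1.5-fold, at -0.53 for BBC3 (probe A_23_P382775), -0.48 for PMAIP1 and -0.37 for TP53INP1. The comparison treats the 3 arrays as measured without error beyond their spots, since none was repeated. With the same dyes on all 3 arrays, a difference from the sum also holds any dye bias of the probe, with its sign turned. A bias above 0 thus places a gene lower against the sum, and its size was not tested. In the difference from the array labelled decitabine alone, a bias equal on both arrays cancels.

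**Figure D4:**
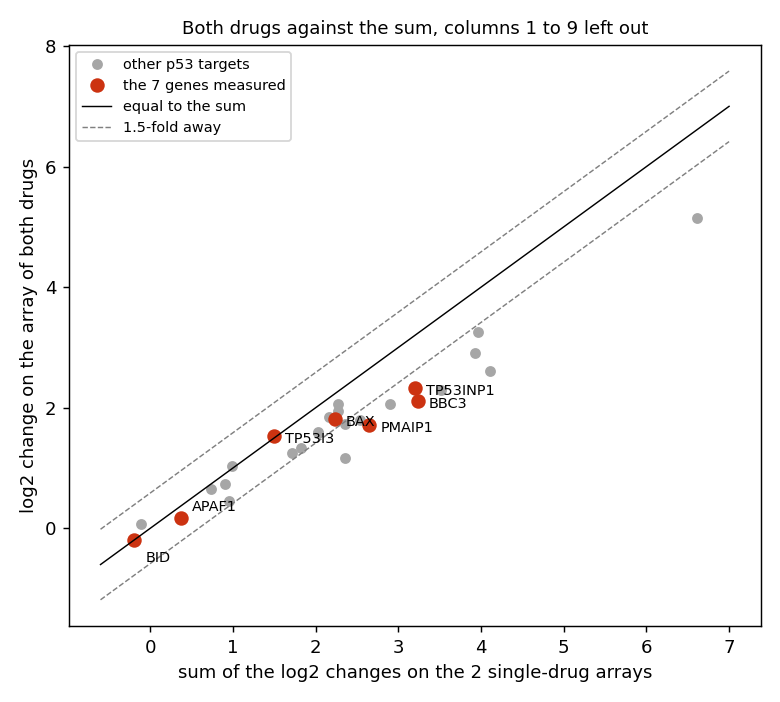
Log2 change on the array of both drugs (vertical axis) against the added log2 changes of the 2 single-drug arrays (horizontal axis), without columns 1 to 9. Red points are the 7 genes measured, grey points other p53 targets, the solid line is equality and the dashed lines are 1.5-fold away from it. BBC3, PMAIP1 and TP53INP1 lie below the lower dashed line and TP53I3 on the solid line.

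Other p53 targets were counted from a list of 24 genes of the cell cycle, repair, feedback and death receptor arms of the pathway. Of these, 23, 10 and 22 were raised on the 3 arrays, against 10.6, 2.76 and 7.47% of all genes. None was lowered, against 4.67, 1.49 and 5.92%. Without columns 1 to 9, 20, 8 and 19 of 21 were raised, against 5.12, 2.72 and 7.39% of all genes. The median log2 changes of the 24 were 1.93, 0.45 and 1.76, next to 1.55, 0.43 and 1.62 for the 8 genes. MDM2, the ubiquitin ligase that removes p53, changed by 3.34, 0.63 and 3.25. CDKN1A, the cell cycle inhibitor p21, changed by 2.97, 0.96 and 2.91. The largest change of the list on each of the 3 arrays was that of GDF15, a secreted stress cytokine, at 4.96, 1.65 and 5.13. PLK3 (2.98, 1.12 and 2.60), PHLDA3, an inhibitor of AKT (2.31, 1.20 and 2.29), and ZMAT3 (2.22, 0.66 and 2.05) were the others named by the rule, which leaves out genes with spots in columns 1 to 9. FDXR (3.87, 1.1 and 2.45) and FAS (2.52, -0.14 and 2.06) are among those left out. Without columns 1 to 9, 9 of 21 of these targets were below the sum of the single-drug changes by 1.5-fold or more and 0 above it. Of all genes, 1.35% were below the sum by as much and 1.87% above it. For this list as for the 8 genes, the lowest median was that of the array labelled carboplatin.

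Of 18 other genes of the mitochondrial pathway, 3, 0 and 3 were raised on the 3 arrays, against 10.6, 2.76 and 7.47% of all genes. None of the 18 was lowered, against 4.67, 1.49 and 5.92% of all genes. Their median log2 changes were 0.12, 0.19 and 0.02. BAK1, which forms pores as BAX does, changed by 0.84, 0.42 and 0.84. HTRA2, a mitochondrial protease, changed by 0.69, 0.25 and 0.58, the last being just under the 1.5-fold line before rounding and not called. The remaining raised genes lie outside the naming rule because of spots in columns 1 to 9. They were BCL2L1, a survival gene, at 1.14, 0.46 and 0.86 (0.87 on the first array without these columns), and BIK, a BH3-only gene. BIK, at 0.52, 0.50 and 0.86, was called with both drugs only. The values of BOK, a further relative of BAX, were 0.20, 0.40 and 0.21. Those of CASP9, the caspase that APAF1 activates, were -0.33, 0.20 and -0.27, and those of BMF, a BH3-only protein, -0.42, 0.39 and -0.53. Of the apoptosome and its caspase, APAF1 and CASP9 were thus called on none of the arrays.

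Among 14 regulators and relatives of p53, 3, 0 and 3 were raised and 1, 0 and 1 lowered on the 3 arrays. Of all genes, 10.6, 2.76 and 7.47% were raised and 4.67, 1.49 and 5.92% lowered. The median log2 changes of the 14 were -0.06, 0.10 and -0.06. Without columns 1 to 9 none of the 12 measured was raised on the array labelled decitabine, against 5.12% of all genes. TP73, a relative of p53, had values of -0.11, 0.41 and 0.66, and HIPK2, a kinase of p53, of -0.01, 0.56 and 0.60. CHEK1, a checkpoint kinase, was the gene lowered, with values of -0.66, 0.07 and -0.80. The p53 cofactors PPP1R13B (-0.21, -0.21 and -0.28) and TP53BP2 (-0.07, -0.21 and -0.27) were called on no array. The 14 reference genes had medians of -0.13, -0.20 and -0.27, with 1, 0 and 1 raised and 2, 4 and 3 lowered. These counts stand against the same shares of all genes.

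**Figure D5:**
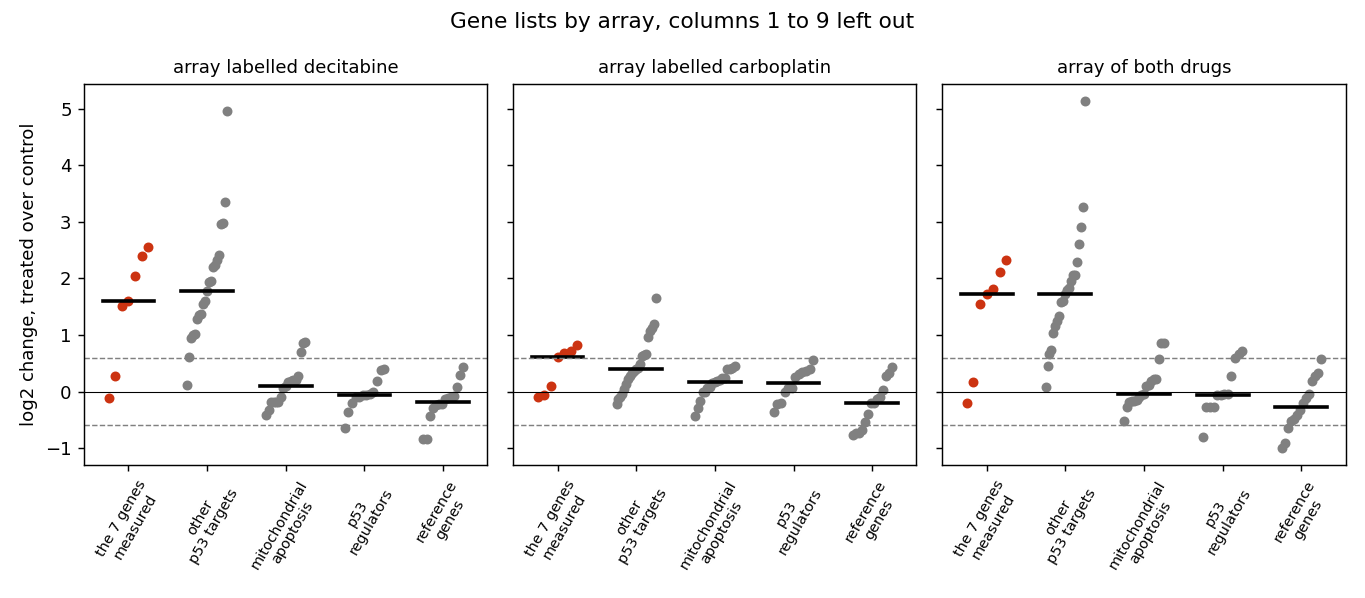
Log2 change, treated over control (vertical axis), of the 7 genes measured and of 4 lists (other p53 targets, mitochondrial apoptosis, p53 regulators and reference genes) on each array, without columns 1 to 9. Points are genes in order of value, black bars are medians and dashed lines mark 1.5-fold. The 7 genes have medians of 1.60, 0.61 and 1.72 and the other p53 targets of 1.78, 0.40 and 1.73, while the medians of the 3 remaining lists lie between -0.26 and 0.17.

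The genes with the pattern most like TP53INP1, BBC3 and PMAIP1 were found by the distance between their log2 changes over the 3 arrays, among 12169 genes well above background and outside columns 1 to 9. With 3 points such a likeness is a description. Nearest to TP53INP1 (2.39, 0.82 and 2.33 in this normalisation) were TNFSF9, at a distance of 0.16, SDC4 at 0.25 and BBC3 at 0.31. Nearest to BBC3 were SDC4 at 0.23, TP53INP1 at 0.31 and ZMAT3 at 0.32. Nearest to PMAIP1 (2.05, 0.61 and 1.72) were FHL2 at 0.18, IER3 at 0.23 and SESN1 at 0.23. BBC3 and TP53INP1 were thus among each other's 3 nearest genes.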

How the data were processed

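RNA was measured on 3 Agilent dual-colour arrays covering the human genome, 1 for each treatment. The deposited scanner files hold spot intensity from Agilent Feature Extraction 9.5.3.1 by their headers (the submitters' processing notes name 8.5.1.1) and a log10 ratio of red over green processed signal, turned here to log2 of treated over control. The authors' processed table holds log2 ratios made with limma. Its direction is not stated and was taken as treated over control from its correlation with the scanner values (0.789, 0.682 and 0.795 in the order of arrays used above).

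Mean signals of all spots were background corrected in limma 3.58.1 (R 4.3.3) by normexp with an offset of 50. They were then normalised by loess within each array, in which control spots and outlier spots had no weight, and the values of those spots were left out. Spots of 1 probe were averaged, and channel levels came from Aquantile scaling. Of 41000 probes, 29395 were matched to a RefSeq gene (26631 by accession, 2219 by symbol and 545 by synonym), and a gene was represented by its brightest probe. Tables and figures were made with Python 3.11.15, pandas 2.3.3, numpy 2.4.6 and matplotlib 3.10.9. The steps were checked on simulated data in which 200 probes carried known changes. Those probes were bright and outside columns 1 to 9, so the check does not cover dim probes or these columns. All probes of the 8 genes are named, as are MDM2, CDKN1A and, per pathway list, the 5 genes with the largest change with both drugs among those well above background and outside columns 1 to 9. Some genes of these lists are not reported here and were left out of their counts. The genes, lists and alternatives were chosen with earlier results of these data known. The number of arrays limits the precision, and no p-value is given. Alternatives were other signals, offsets, centring, spot filters, probe rules and the authors' table. Gene names in RefSeq tables and promoters are those of GRCh38.p14, and probe positions those of the scanner files (GRCh37).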

Additional observations from a re-analysis of the deposited data

Results flagged for a closer look

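TP53I3 had values of opposite sign on different arrays, each larger than the repeat-spot SD, but its value below 0 was a single spot and was not called lowered. Its log2 change was -0.10 on the array labelled carboplatin, but 1.53 with both drugs and 1.59 on the array labelled decitabine. The difference was not tested, since each treatment has 1 array. On the array labelled carboplatin the value ran from -0.58 to -0.09 over the 10 alternatives. On the other arrays it ran from 1.02 to 1.61 and from 1.05 to 1.55, so the opposite signs were kept in all of them.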

How the results depend on the processing

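No paired analysis was possible because each treatment has 1 array. Counts and medians below are of the 8 genes. With median centring in place of loess, which moved the median of all genes to -0.14, -0.16 and -0.10 in the order of arrays used above, the medians fell to 0.99, 0.16 and 1.19. The number raised on the array labelled carboplatin was then 0, the number above the sum of single-drug changes 1 (TP53I3) and the number below it 2 (AEN and BID). With the median over probes the median was 1.81 on the array labelled decitabine and 0.65 on that labelled carboplatin. On the latter it was also 0.52 with processed signals, 0.53 with the scanner's log ratio, 0.55 with the authors' values and 0.61 without columns 1 to 9 (7 genes), and on the array of both drugs it was 1.72 without these columns. The other counts of raised genes and of genes above or below the sum stayed within 1.5 times, and the other medians within the repeat-spot SD of their array. With outlier spots kept, the median on the array labelled decitabine went from 1.55 to 1.7. That shift is within the SD of 0.230 but not within the 0.0786 outside columns 1 to 9. The number lowered, 0 as reported, was 1 (BBC3, brightest probe) on the array labelled decitabine with processed signals, the scanner's log ratio or median centring, and 1 with both drugs under median centring. Of 303 values of single probes, 212 moved by less than the repeat-spot SD and 91 by more, and 37 of the 91 came from median centring. In 0 cases did the direction of a called change turn. For the array labelled decitabine the SD used was 0.230, which includes columns 1 to 9, and it was 0.0786 outside them. The split is thus more lenient for that array than for the others. The rise of BID on the array labelled decitabine was 1.47 by its brightest probe and -0.12 without columns 1 to 9. BBC3 went from -0.09 to 2.55 there, since another probe then stood for it. The cause of these shifts was not tested beyond the choice of probes and columns. APAF1 ran from 0.10 to 0.48 on the array labelled decitabine and AEN from 2.09 to 3.11.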
